A study of Mus musculus with 9 samples.

Results

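Serum response factor (SRF) and the proteins that switch it on or off were followed in mouse NIH 3T3 fibroblasts, an established cell line, whose actin had been disturbed with drugs. The 9 genes were Srf, its myocardin-family coactivators Mrtfa, Mrtfb and Myocd, its ternary complex factors Elk1, Elk3 and Elk4, and the regulators Mical2 and Scai. They were taken by name, and every probe set that the array's annotation gives to exactly 1 of these symbols was used. This gave 25 probe sets of 45101 on the array, and 9 genes of the 18194 named on it. RNA was measured on 9 Affymetrix arrays in 3 groups of 3. The first group received latrunculin B at 5 µM together with cytochalasin D at 2 µM for 90 min, the next received cytochalasin D alone at 2 µM for 90 min, and the control received neither drug. All groups, the control included, were serum-starved and given the translation inhibitor cycloheximide (3 µg/ml, 2 h). For the first group the titles mention only latrunculin B, but the agent label and the design text list both agents; the grouping here uses the agent label. The design calls the 3 arrays of each group independent biological replicates, and the labels number them 1, 3 and 7.

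SRF is a MADS-box transcription factor that binds a short DNA element, the CArG box, in genes for the cytoskeleton, muscle contraction and the immediate-early response. On its own it activates little, and it works through partners of 2 kinds. The myocardin-related factors MRTF-A and MRTF-B are held inactive by binding monomeric actin, and myocardin itself, which does not depend on actin in this way, is mainly known from heart and smooth muscle. The ternary complex factors (TCFs) belong to the ETS family, are switched on by MAP kinases, and touch an ETS motif close to the CArG box. Cytochalasin D takes monomeric actin away from the MRTFs, whereas latrunculin B holds actin monomers in a form that keeps binding them. The labels give filamentous actin as depolymerized in both drug groups, so the groups ask whether genes follow filament loss itself or the actin monomers that bind the MRTFs.

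The DNA in front of Srf is shown because Srf is itself a known target of SRF. The 250 bases before its start in RefSeq lie at chr17:46556163-46556412 on the minus strand of GRCm38.p6, and the annotated gene range reaches further upstream of this start. Capitals mark, in order, the ETS core CCGGAA and 2 CArG boxes.
Srf: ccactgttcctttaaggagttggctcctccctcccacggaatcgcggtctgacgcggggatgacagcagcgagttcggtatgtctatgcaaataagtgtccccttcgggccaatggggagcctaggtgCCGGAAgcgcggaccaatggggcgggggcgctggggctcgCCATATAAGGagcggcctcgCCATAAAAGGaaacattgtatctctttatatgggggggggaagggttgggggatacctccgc
The ETS core spans bases -122 to -117 from the start, and the CArG boxes span -82 to -73 and -62 to -53, so 10 bases separate the boxes. Both motifs were searched as exact letters on both strands, and none of the 3 matches overlaps another. A match is a description of letters and not a shown binding site.

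Of 32851 promoter windows of this length in the RefSeq table, 482 (1.47%) held a CArG box and 6 (0.0183%) held at least 2. The ETS core was far commoner, with 3952 windows (12%), and 48 windows (0.146%) held both motifs. Among the members, 8 genes had 13 windows in all, and Myocd had none. Srf was the member with CArG boxes, while the ETS core was also found before the first and second start of Mrtfb and the first start of Elk4. Neither motif was matched before Mrtfa, Elk1, Elk3, Mical2 or Scai, which says only that these letters are not in these windows.

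**Figure D1:**
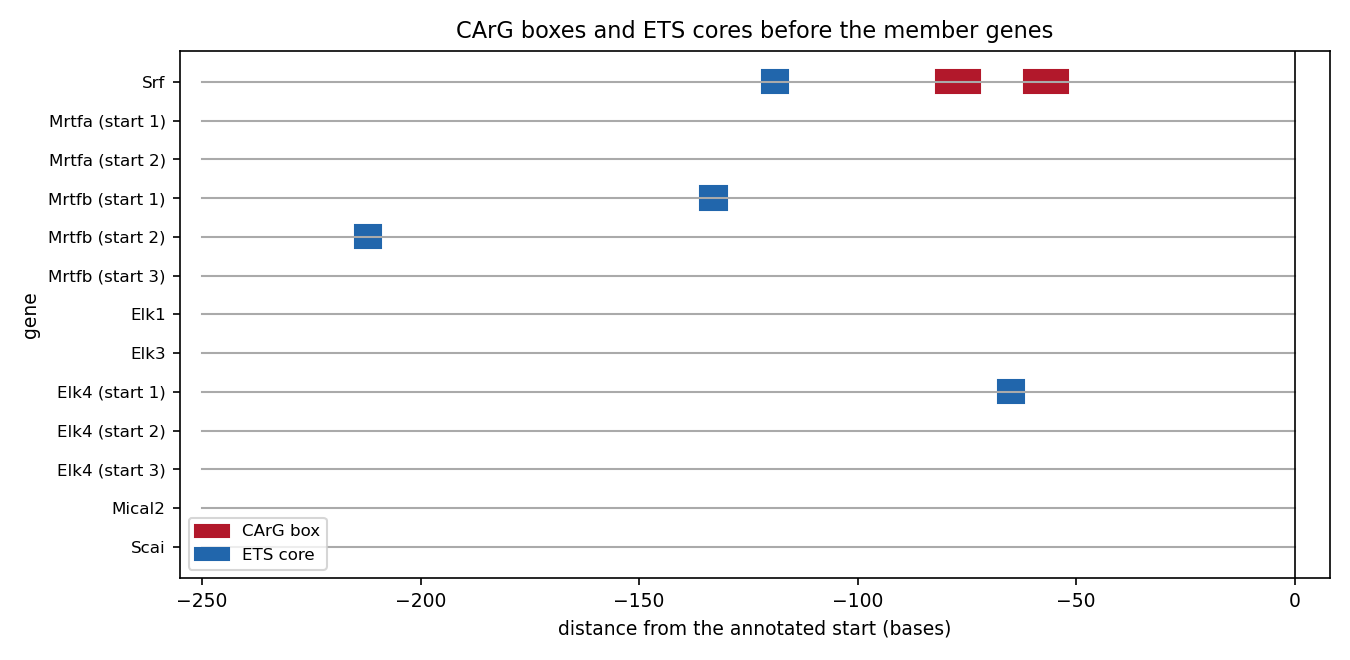
CArG boxes and ETS cores in the 250 bases before each annotated start of the 8 member genes with a window. The x axis is the distance from the start in bases, each line is 1 start, red blocks are CArG boxes and blue blocks ETS cores; Srf carries 2 red blocks and 1 blue block, and the other 12 windows carry no red block.

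The deposited values are intensities normalized by the authors, 1 per probe set and array, with array medians between 7.57 and 7.84. No value was missing, and 0 of 36 pairs of arrays were identical. Of 10 fibroblast markers, 9 were above an intensity of 100 on all 9 arrays, whereas 0 epithelial, 0 endothelial and 0 skeletal muscle markers were. Of 6 macrophage and leukocyte markers 1 was (Cd14), and of 6 smooth muscle markers 1 was (Smtn, smoothelin). The summed intensity of the smooth muscle markers ran between 179.1 and 252.9 with latrunculin B and cytochalasin D, between 282.7 and 303.4 with cytochalasin D, and between 185.2 and 270.6 in control. That list holds Cnn1, which is also counted below as a target of MRTF and SRF. In bulk RNA, fewer cells of a type and less RNA per cell cannot be told apart.

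The member genes lay at very different intensities, and most of their probe sets were dim. On all arrays 13 of the 25 probe sets stayed under an intensity of 20, and 11 stayed above it. A probe set was tested if it exceeded the 40th percentile of its array on at least 3 arrays. The 18 tested member probe sets exceeded it on all 9 arrays, so none entered the test through 1 group alone. They cover 8 genes. The 7 untested ones were both probe sets of Myocd, 2 of 3 for Mrtfb, 2 of 4 for Elk4 and 1 of 3 for Elk1. Intensities of different probe sets are not comparable as amounts of RNA, so no order is drawn between genes.

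**Figure D2:**
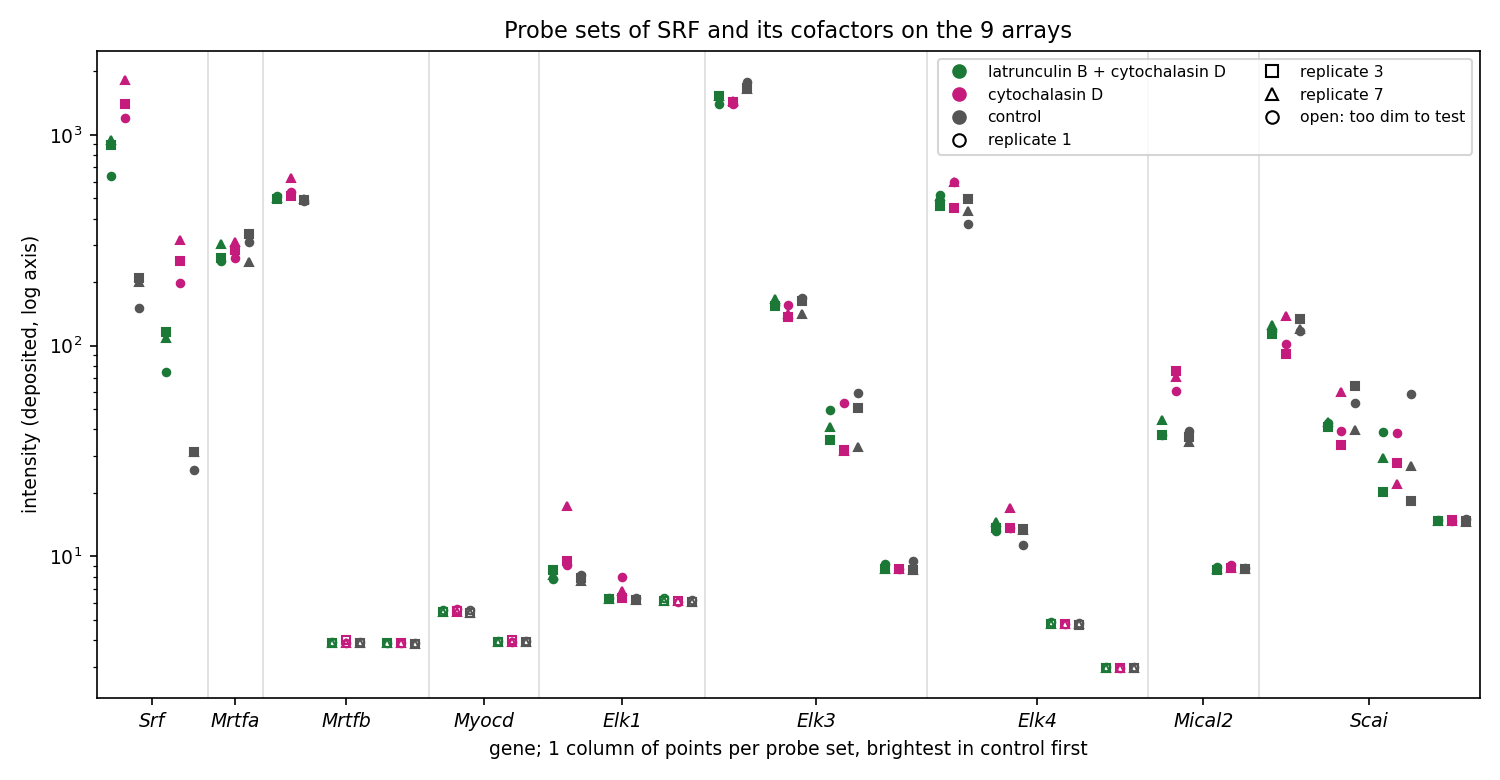
Deposited intensity (log axis) of all 25 member probe sets, grouped by gene along the x axis, with the groups in the order latrunculin B and cytochalasin D, cytochalasin D, control. Each point is 1 array, its shape gives the replicate number, and open points were too dim to test; the 3 groups stand apart for both Srf probe sets, and for 1 Mical2 probe set the cytochalasin D arrays lie above all others.

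Srf had the largest change of the members in both comparisons with control. Its brighter probe set, 1418255_s_at, read 638.9, 896.2 and 944.8 in replicates 1, 3 and 7 with latrunculin B and cytochalasin D, against 1208, 1400 and 1817 with cytochalasin D and 151.5, 209 and 199.8 in control. The 3 groups did not overlap: every array with cytochalasin D alone was above every array with both drugs, and every array with both drugs was above every control. Replicate 1 was the lowest array in each group.

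With cytochalasin D, Srf rose above control by a log2 change of 2.87 (SE 0.21, n = 3 arrays per group, adjusted p = 0.00191 by limma). On the intensity scale the cytochalasin D mean was 1475 ± 311.1 and the control mean 186.8 ± 30.85 (SD, n = 3 each), a ratio of 7.90. Within replicate numbers the log2 differences were 2.87, 2.65 and 3.09. The dimmer probe set 1418256_at read 198.8, 251.8 and 316 with cytochalasin D, against 25.56, 31.25 and 31.22 in control. It rose by 2.56 (SE 0.20, adjusted p = 0.0021 by limma), so both Srf probe sets moved the same way, by a like amount. Both calls held in every alternative run and without any 1 array.

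With latrunculin B and cytochalasin D, Srf was still above control. Probe set 1418255_s_at averaged 826.6 ± 164.4 with both drugs and 186.8 ± 30.85 in control (SD, n = 3 each), a ratio of 4.43 and a log2 change of 2.05 (SE 0.21, adjusted p = 0.0393 by limma). Within replicate numbers the log2 differences were 1.97, 2.02 and 2.15. This call was lost when any 1 of the 9 arrays was left out, with adjusted p between 0.0589 and 0.186 and log2 changes between 1.92 and 2.22. Probe set 1418256_at read 74.6, 115.6 and 108.8 with both drugs, against 25.56, 31.25 and 31.22 in control, again without overlap. Its log2 change was 1.33 (SE 0.20) with an adjusted p of 0.0972 by limma, and its ratio of mean intensity was 3.40. With the replicate number as a block, both Srf probe sets were called, at adjusted p = 0.00859 for 1418255_s_at and 0.0293 for 1418256_at by limma.

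Between the 2 drug groups, Srf was lower with latrunculin B added on all arrays, but the test across all probe sets did not call it. The log2 change with both drugs against cytochalasin D alone was -0.82 for 1418255_s_at (95% interval -1.33 to -0.32, adjusted p = 0.504 by limma) and -1.23 for 1418256_at (95% interval -1.69 to -0.76, adjusted p = 0.111 by limma). The ratios of mean intensity were 0.561 and 0.390. With the replicate number as a block, 1418256_at was called (adjusted p = 0.0413 by limma) and 1418255_s_at was not (adjusted p = 0.055 by limma).

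**Figure D3:**
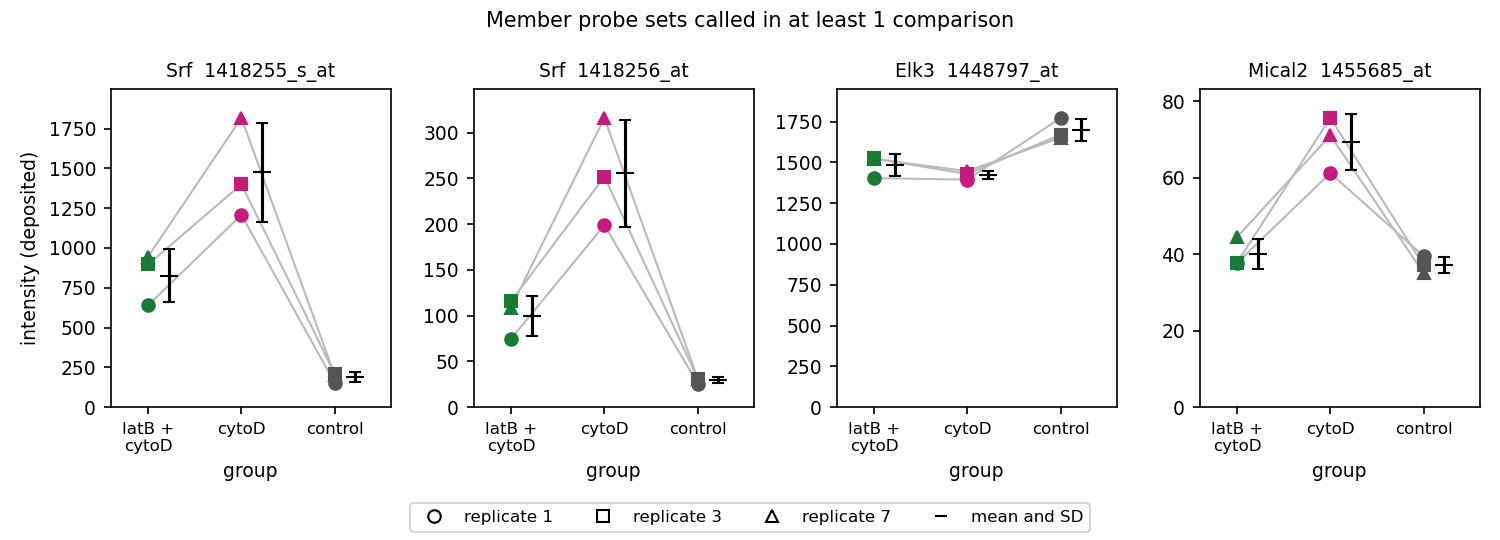
Deposited intensity of the 4 member probe sets called in at least 1 comparison, with the groups from left to right latrunculin B and cytochalasin D, cytochalasin D, and control. Shapes are replicate numbers, grey lines join arrays of the same number, and black bars are the mean ± SD of 3 arrays; Srf with both drugs lies between the other groups, whereas Mical2 with both drugs lies at the control level.

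The myocardin-family coactivators showed no change that passed the test. Mrtfa (1434900_at) read 252, 260.5 and 303.6 with latrunculin B and cytochalasin D, 261.4, 285.2 and 309.7 with cytochalasin D, and 311.7, 337 and 249.8 in control. The groups overlapped, and both the highest and the lowest array were controls. The log2 change with cytochalasin D against control was -0.06 (95% interval -0.35 to 0.23) and that with both drugs against control -0.13 (95% interval -0.42 to 0.17), so a change the size of that of Srf lies far outside both intervals.

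Mrtfb (1435547_at) read 513.6, 497.9 and 500.5 with latrunculin B and cytochalasin D, 535, 512.4 and 626.3 with cytochalasin D, and 483.8, 489.8 and 495.9 in control. Every array of either drug group was above every control, but by little. The log2 change with cytochalasin D against control was 0.18 (95% interval 0.02 to 0.34, adjusted p = 0.424 by limma), or 0.09 without cytochalasin D replicate 7, and with both drugs against control 0.04 (95% interval -0.12 to 0.20). Its other 2 probe sets stayed between 3.83 and 3.99 on all arrays. Myocd, whose protein is the muscle-restricted founder of the family, had probe sets between 3.90 and 4.01 and between 5.41 and 5.60 on all 9 arrays, and was too dim to test.

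Of the ternary complex factors, Elk3 passed the test in 1 comparison, with a small change. Elk3, also called Net, is known as a TCF that can repress SRF targets until it is phosphorylated. Its bright probe set 1448797_at read 1403, 1524 and 1520 with latrunculin B and cytochalasin D, 1394, 1428 and 1446 with cytochalasin D, and 1772, 1670 and 1651 in control. Every array of either drug group was below every control, while the drug groups overlapped.

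Against control, Elk3 1448797_at fell with cytochalasin D by a log2 change of -0.25 (SE 0.04, adjusted p = 0.0394 by limma). This call was lost without any 1 array except replicate 1 with latrunculin B and cytochalasin D, where adjusted p was 0.026, and otherwise reached up to 0.139. It was also lost without a filter on dim probe sets, with a stricter filter, after quantile normalization, with only the 6 arrays compared and with a trended, robust prior. With both drugs against control the log2 change was -0.19 (95% interval -0.29 to -0.10, adjusted p = 0.268 by limma). The other 3 Elk3 probe sets were not called, with log2 changes for cytochalasin D against control of -0.21 for 1417662_at, -0.11 for 1435143_at and -0.01 for 1445886_at.

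Elk4, also called SAP-1, was not called in any comparison. Its bright probe set 1427162_a_at read 520.4, 458.1 and 511.2 with latrunculin B and cytochalasin D, 594.5, 450.9 and 598.9 with cytochalasin D, and 378.1, 496.9 and 432.8 in control. The groups overlapped, because replicate 3 was the lowest array with cytochalasin D and the highest in control. The log2 change with cytochalasin D against control was 0.32 (95% interval -0.01 to 0.64, adjusted p = 0.512 by limma). Elk1, the TCF most studied as a target of ERK, was dim on this array. Its probe set 1421897_at averaged 8.20 ± 0.388 with both drugs, 11.96 ± 4.63 with cytochalasin D and 7.93 ± 0.261 in control (SD, n = 3 each). The cytochalasin D mean rests on replicate 7 at 17.3, the other 2 arrays being at 9.11 and 9.46, and the log2 change was 0.21 (95% interval -0.03 to 0.46, adjusted p = 0.585 by limma). The remaining probe sets of Elk1 lay between 6.08 and 8.02, and those of Elk4 between 2.94 and 16.96, on all arrays, with 0 calls.

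Mical2, an enzyme that oxidises actin and is known to promote MRTF activity in the nucleus, was high in 1 group. Probe set 1455685_at read 37.68, 37.77 and 44.44 with latrunculin B and cytochalasin D, 61.2, 75.62 and 71.05 with cytochalasin D, and 39.43, 37.04 and 35.01 in control. All 3 arrays with cytochalasin D alone were above all 6 others, and the arrays with both drugs overlapped the controls.

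With cytochalasin D against control, Mical2 1455685_at rose by a log2 change of 0.68 (SE 0.08, adjusted p = 0.00869 by limma), and the ratio of mean intensity was 1.87. Since the probe set is dim, the size depends on the 16 added before the logarithm: the log2 change was 0.88 with 1 added and 0.40 with 64 added. The call was lost with only the 6 arrays compared (adjusted p = 0.0562). With both drugs against cytochalasin D it fell by 0.61 on the log2 scale (95% interval -0.79 to -0.43, adjusted p = 0.047 by limma). That call was lost with the replicate number as a block (adjusted p = 0.0881 by limma) and without any 1 array except cytochalasin D replicate 1 (adjusted p between 0.0498 and 0.235 over all 9). With both drugs against control the log2 change was 0.07 (95% interval -0.11 to 0.25). The other Mical2 probe set, 1438726_at, lay between 8.66 and 9.12 on all arrays, with 0 of 3 comparisons called.

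Scai, whose protein binds MRTF-A and represses SRF transcription, had 4 tested probe sets and 0 calls. The brightest, 1456357_at, read 117.3, 113.9 and 125.8 with latrunculin B and cytochalasin D, 101.9, 91 and 138.3 with cytochalasin D, and 117.9, 134 and 120.2 in control. The groups overlapped, and its log2 change with cytochalasin D against control was -0.16 (95% interval -0.47 to 0.15), and between -0.32 and -0.05 with 1 array left out. In the same comparison the others changed by -0.19 (1435266_at, intensities between 33.71 and 64.42), -0.09 (1445081_at, between 18.32 and 58.74) and 0.003 (1440846_at, between 14.49 and 14.96), none called.

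Counted over probe sets, with cytochalasin D against control 3 of 18 tested members were higher (both Srf, Mical2 1455685_at), beside 1.14% of all tested probe sets, and 1 was lower (Elk3 1448797_at), beside 0.422%. At an unadjusted p under 0.05 (limma) there were 5, beside 2752 of all 27010. In the comparison of both drugs with control 1 was higher (Srf 1418255_s_at), beside 0.1%, and 0 were lower, beside 0.0111%. Unadjusted, 3 members passed there, beside 1425 of 27010. Between both drugs and cytochalasin D alone, 0 were higher, beside 0.0111%, and 1 was lower (Mical2 1455685_at), beside 0.248%. Unadjusted, 3 members passed there, beside 1141 of 27010. With the replicate number as a block, 2 members were higher with both drugs against control, beside 0.315%, and 0 lower, beside 0.141%. In that fit 0 were higher with both drugs against cytochalasin D alone, beside 0.0555%, and 1 was lower (Srf 1418256_at), beside 0.311%. The comparisons share arrays, so their calls are not independent of each other.

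**Figure D4:**
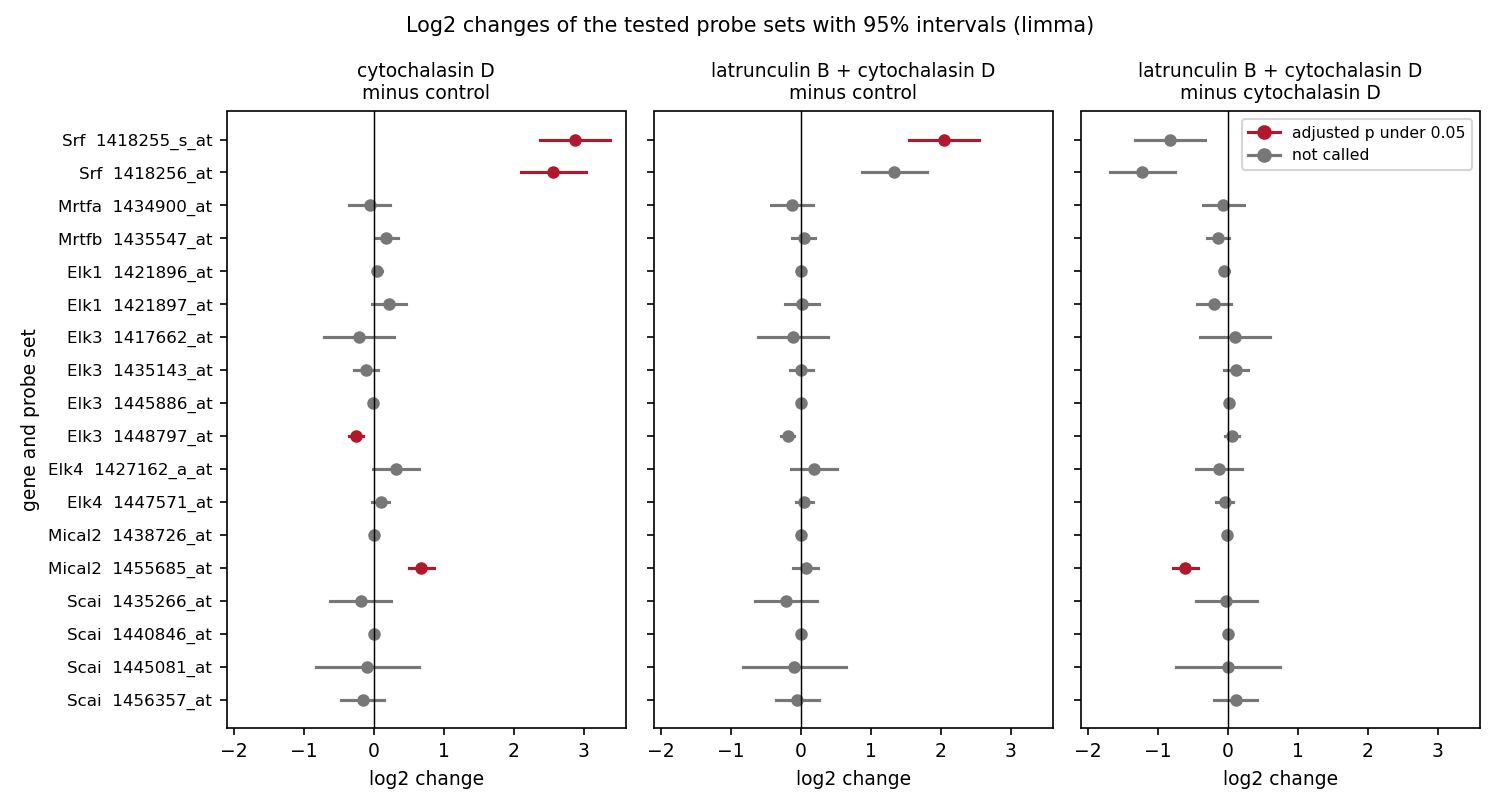
Log2 change (x axis) of the 18 tested member probe sets in the 3 comparisons, with 95% intervals from limma over 9 arrays and called probe sets in red. The intervals of both Srf probe sets lie above 0 in the comparisons with control, and those of Mrtfa and all 4 Scai probe sets include 0 in all 3 panels.

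Most tested genes known as targets of SRF and the MRTFs also rose with cytochalasin D. On a list of 38 MRTF-SRF targets, mostly actins, actin-binding proteins and adhesion genes, 37 were tested. This list, like the others, was chosen with earlier results of these data known, so its counts are a description and not independent support. With cytochalasin D against control 29 rose and 0 fell, with a median log2 change of 1.5, beside 1.37% higher and 0.561% lower of all 12651 genes tested, whose median was near 0. Against control, 4 rose with both drugs, with a median of 0.59, beside 0.134% of all genes. Relative to cytochalasin D alone, 11 fell with both drugs, with a median of -0.76, beside 0.316% of all genes. With the replicate number as a block these counts became 7 higher against control and 7 lower against cytochalasin D. The share of all tested probe sets went from 0.1% to 0.315% in the former and from 0.248% to 0.311% in the latter.

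Among these targets, Cnn1 (calponin 1, an actin-binding protein of smooth muscle) averaged 5.90 ± 0.484 with latrunculin B and cytochalasin D, 37.03 ± 3.59 with cytochalasin D and 4.59 ± 0.0435 in control (SD, n = 3 each). It exceeded the 40th percentile of its array, which lay between 6.16 and 6.35, on 3 cytochalasin D arrays, 1 array with both drugs and 0 controls, so it was tested through the group where it is high. No size of change is given for it, and it is among the 29 and the 11 called above. Of the 37 tested targets, 35 exceeded that level on all 9 arrays. Acta1, skeletal muscle actin, averaged 56.03 ± 18.31 with both drugs, 1168 ± 479.3 with cytochalasin D and 19.2 ± 1.07 in control, and fell by 4.0 on the log2 scale with both drugs against cytochalasin D (adjusted p = 0.0113 by limma). Actg2, smooth muscle gamma actin, fell by 2.24 and Fhl1, a LIM-domain protein, fell by 1.74 in the same comparison (adjusted p = 0.00727 and 0.0159 by limma). Probe sets of near-identical actin genes may pick up each other's transcripts. The falls of Acta1 and Fhl1 lost their calls without any 1 of the 3 arrays with both drugs, Acta1 also without control replicate 3 and Fhl1 without cytochalasin D replicates 1 or 3 (adjusted p up to 0.0694 for Acta1 and 0.0861 for Fhl1), whereas that of Actg2 held without any 1 array.

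The 4 MRTF-SRF targets that rose with both drugs against control were Actg1, Tpm4, Csrp1 and Ccn1. Ccn1, a secreted matrix protein, averaged 8950 with both drugs, 11560 with cytochalasin D and 2754 in control, and its log2 change was 1.70 (SE 0.11, adjusted p = 0.0172 by limma). Actg1, cytoplasmic gamma actin, rose by 0.41 (adjusted p = 0.0213), Tpm4, a tropomyosin, by 0.59 (adjusted p = 0.0172) and Csrp1, a LIM protein of the cytoskeleton, by 0.84 (adjusted p = 0.0412), each by limma. Csrp1 was not called with the replicate number as a block (adjusted p = 0.0744 by limma).

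On a list of 18 TCF-SRF immediate-early targets, 17 were tested, and 8 rose with cytochalasin D against control, with a median log2 change of 1.51, beside 1.37% of all genes. Against control, 4 rose with both drugs, with a median of 0.99, beside 0.134%, and with both drugs against cytochalasin D 1 fell, with a median of -0.52, beside 0.316%. With the replicate number as a block, 5 rose with both drugs against control, Egr2 being added (adjusted p = 0.0283 by limma), beside 0.315% of all tested probe sets. In that fit 2 fell against cytochalasin D, Arc and Zfp36 (adjusted p = 0.0455 and 0.035 by limma), beside 0.311%. Zfp36, which encodes an RNA-decay protein, averaged 1327 ± 155.3 with both drugs, 1993 ± 217.6 with cytochalasin D and 320.3 ± 59.25 in control (SD, n = 3 each). Its log2 changes against control were 2.01 with both drugs (adjusted p = 0.0172 by limma) and 2.59 with cytochalasin D (adjusted p = 0.00099 by limma). Ier2, Junb and Fosl1, all of the early transcriptional response, also rose with both drugs against control, by 1.73, 0.99 and 1.22 (adjusted p = 0.0172, 0.0393 and 0.0394 by limma). Arc, a synaptic immediate-early gene, was the 1 called lower without the block with both drugs against cytochalasin D, by a log2 change of -1.9 (adjusted p = 0.0404 by limma). It exceeded the 40th percentile on all arrays of both drug groups and on 0 controls. That call was lost without any 1 array except cytochalasin D replicates 1 and 7 (adjusted p up to 0.196).

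For the 8 list genes named as higher with both drugs against control, as for Srf, leaving out 1 array often ended the call. The log2 changes moved little: they stayed between 1.61 and 1.76 for Ccn1 and between 0.91 and 1.09 for Junb. Each of the 8 lost its call without any 1 of the 3 arrays with both drugs, without cytochalasin D replicate 1 and without control replicate 3. Their highest adjusted p ran between 0.121 for Ccn1, Ier2 and Zfp36 and 0.218 for Csrp1 (limma). Over all 9 arrays left out in turn, the call was lost 6 times for Zfp36 and Actg1, 7 times for Tpm4, Ier2 and Ccn1, 8 times for Csrp1 and Fosl1, and 9 times for Junb.

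Of 9 tested RAS-ERK and MAP kinase genes, 0 were called in any comparison by limma, as were 0 of 3 other MADS-box factors and 0 of 10 other ETS factors, with medians between -0.06 and 0.09. Of all 12651 genes, 1.37% were higher and 0.561% lower with cytochalasin D against control. The shares in the other comparisons were smaller, so 0 calls on lists this short lie near the share of all genes. At an unadjusted p under 0.05, 1 of these RAS-ERK genes passed with both drugs against cytochalasin D, 1 of the ETS factors passed with cytochalasin D against control, and 0 passed otherwise. Of all 27010 tested probe sets, 1141 and 2752 passed in these comparisons, in that order. Among 4 MICAL and MICAL-like genes, Mical1 rose with cytochalasin D by 0.45 (adjusted p = 0.0383 by limma), which was lost without any 1 array except control replicates 1 and 7 (adjusted p up to 0.118). Of 5 tested other partners of SRF, Nkx2-5, a homeobox factor of the heart, rose with cytochalasin D: it averaged 155.6 with both drugs, 315.4 with cytochalasin D and 80.02 in control, a log2 change of 1.77 (adjusted p = 0.00693 by limma).

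**Figure D5:**
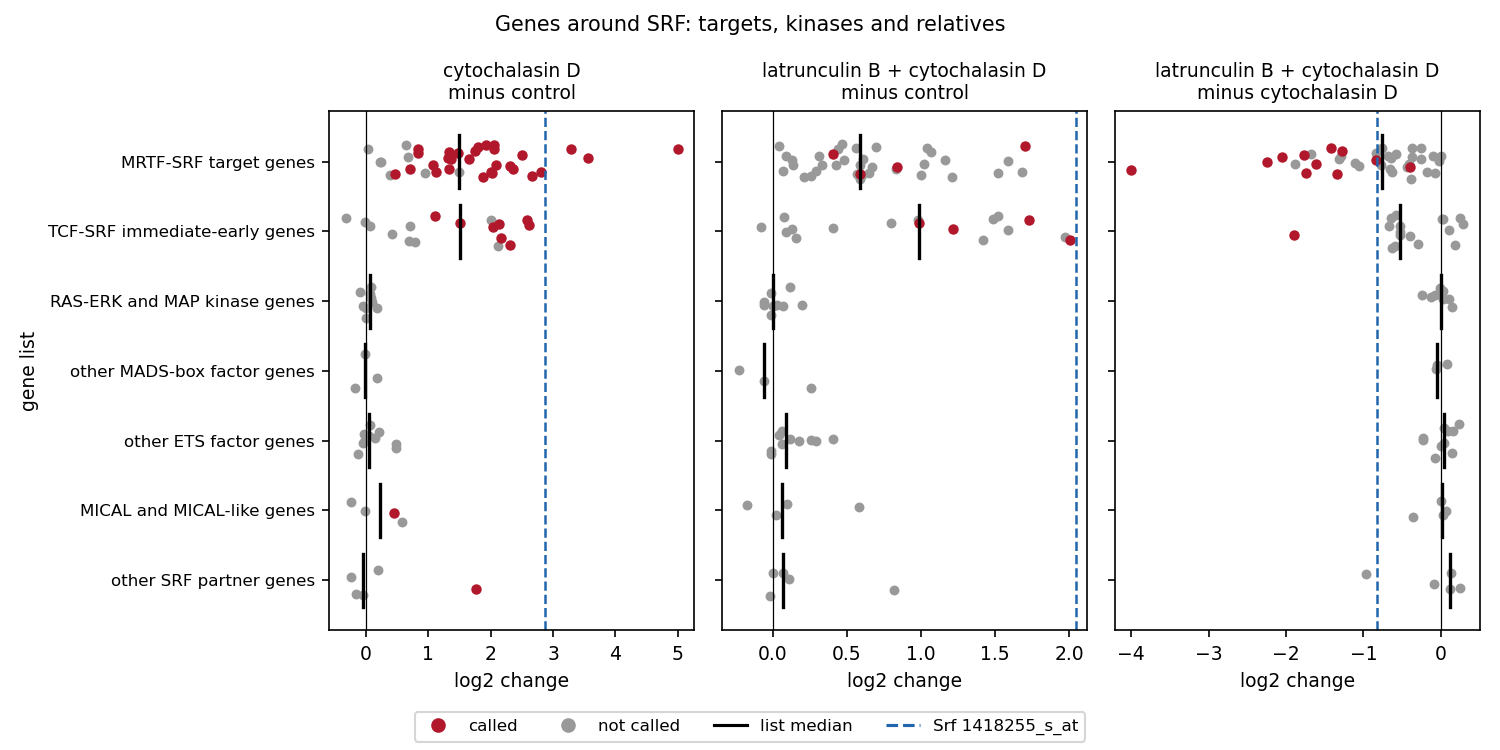
Log2 change (x axis) of each tested gene of 7 lists around SRF in the 3 comparisons. Points are genes, red where called, black bars are list medians, and the dashed line is Srf 1418255_s_at; the 2 target lists have medians of 1.5 and 1.51 with cytochalasin D against control, and the medians of the other 5 lists lie between -0.06 and 0.22 in all panels. The x axes of the 3 panels differ.

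CArG boxes were more frequent before the genes of the target lists, which were drawn up as known SRF targets, than before other genes. Of 31 MRTF-SRF targets with a promoter window 9 (29%) held a box in at least 1 window, and of 13 TCF-SRF targets 2 (15.4%) did, beside 439 of all 27025 genes (1.62%). No gene of the RAS-ERK, other MADS-box, other ETS or MICAL lists held one, and 1 of 6 other SRF partners did. The boxes of 4 targets named above are shown with 10 bases on each side and the box in capitals, to be read beside those of Srf. They lie in GRCm38.p6 at chr7:28379267-28379296 (Zfp36), chr8:123894829-123894858 (Acta1) and chr11:120348566-120348595 (Actg1), all on the minus strand, and at chrX:56779571-56779600 on the plus strand (Fhl1).
Zfp36: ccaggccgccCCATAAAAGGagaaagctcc
Acta1: tgcccgacacCCAAATATGGcttgggaagg
Actg1: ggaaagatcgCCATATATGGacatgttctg
Fhl1: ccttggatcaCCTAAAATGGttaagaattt
The Zfp36 box has the same letters as the second box of Srf. Zfp36 and Actg1 rose with both drugs against control, whereas Acta1 and Fhl1 were called higher with cytochalasin D alone, and with both drugs against control their log2 changes were 1.0 and 0.07 (adjusted p = 0.619 and 1.0 by limma).

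Only 5 genes of the RefSeq table held 2 CArG boxes in 1 window, Srf among them. The other 4 were Dusp5, Ceacam11, Gm33934 and Gm39572, named here for their promoters, after their values were known. Dusp5, a nuclear phosphatase that acts on ERK, has boxes that touch each other. Each is shown with 10 bases on each side and the box in capitals. These overlapping stretches lie at chr19:53529053-53529082 and chr19:53529063-53529092 on the plus strand of GRCm38.p6.
Dusp5 first box: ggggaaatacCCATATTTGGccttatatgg
Dusp5 second box: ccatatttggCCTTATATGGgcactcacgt
Dusp5 (1437199_at) averaged 310.6 ± 43.32 with latrunculin B and cytochalasin D, 803.7 ± 60.06 with cytochalasin D and 98.3 ± 22.79 in control (SD, n = 3 each). Its log2 change was 2.86 with cytochalasin D against control (adjusted p = 0.000923 by limma), 1.52 with both drugs against control (adjusted p = 0.0393) and -1.33 with both drugs against cytochalasin D (adjusted p = 0.0384). The rise with cytochalasin D was called without any 1 array, whereas the other calls were lost without any 1 array except control replicate 1 (adjusted p up to 0.176 and 0.194). The 6 probe sets of Ceacam11 were too dim to test, with means between 3.65 and 5.90, and Gm33934 and Gm39572 had none. Read in the direction of each gene, both boxes of Ceacam11 have the same letters as the first box of Srf. The second box of Dusp5 has the letters of that Srf box when read on the opposite strand. The Gm33934 box nearer the start has the letters of the second Srf box, as the Zfp36 box does.

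The genes whose pattern over the 9 arrays was most like that of Srf 1418255_s_at, by Pearson's r on log2 values, were Slc2a1 (0.990), Ctdp1 and Pdlim7 (0.989 each), Zfp281 (0.988), and Zfp36, Prkab2, Tubb6 and Tpm4 (0.985 each). These 9 points fall into the 3 groups, so the correlations mostly describe the group means. Slc2a1, the glucose transporter GLUT1, averaged 4007 ± 424.6 with both drugs, 5130 ± 581.4 with cytochalasin D and 2357 ± 48.93 in control (SD, n = 3 each). Pdlim7 and Tpm4 are on the MRTF-SRF list and Zfp36 is on the TCF-SRF list.

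For Mical2 1455685_at the nearest genes were Agpat4 (0.983), Lpar4 (0.982), Prkab2 (0.981, by another probe set than for Srf), Cnn1 (0.978), Lims2, Prkag2 and Pkp2 (0.977 each) and Arc (0.973). Here too the 9 points fall into the 3 groups, so these correlations, and those of Elk3 below, mostly describe the group means. Cnn1 was tested through the cytochalasin D group, where Mical2 is also high, so its likeness partly follows from the filter. Arc exceeded the filter level on 0 controls. Lpar4, a receptor for lysophosphatidic acid, averaged 46.92 ± 2.93 with both drugs, 132.8 ± 17.69 with cytochalasin D and 48.07 ± 1.23 in control (SD, n = 3 each), and like Mical2 it stood high in the cytochalasin D group. For Elk3 1448797_at the nearest were Marcks (0.949), Zfp82 (0.947), Rps24 (0.941), Zfp790 (0.939), Dusp7 (0.938), Zfp54 (0.934), Mrps24 (0.933) and Cptp (0.928). Marcks, an actin-binding substrate of protein kinase C, averaged 4880 ± 273.8 with both drugs, 4661 ± 209.1 with cytochalasin D and 5848 ± 422.2 in control (SD, n = 3 each).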

How the data were processed

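RNA of 9 NIH 3T3 cultures was measured on Affymetrix arrays. Each deposited value is a linear intensity of 1 probe set, already normalized by the authors; per the submitters' processing notes MAS5 and GCRMA were used, without versions and without saying which made these values. No genome build goes with them. Groups follow the agent label. Gene symbols came from the platform annotation (34958 probe sets with 1 symbol, 932 with several, which name no gene), and promoter windows and gene names from RefSeq tables of GRCm38.p6.

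Intensities were changed to log2(intensity + 16), which shrinks the changes of dim probe sets. Probe sets above the 40th percentile of their array on at least 3 arrays were tested, without control probe sets, leaving 27010, of which 22822 carry 1 symbol (12651 genes). A model with 1 mean per group was fitted to all 9 arrays with limma 3.58.1 in R 4.3.3 (lmFit, eBayes, two-sided) and was tested on simulated data. P-values were adjusted by Benjamini-Hochberg over all tested probe sets and called under 0.05. The number of arrays, 3 per group, limits the precision. A gene on a list is represented by its tested probe set with the highest mean. Named were all members, up to 4 called genes with the smallest adjusted p per list and comparison, and the 8 genes most correlated with each called member. The result of 1 further list is not reported here. The members and lists were chosen with earlier results of these data known.

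Pairing by replicate number was checked as the correlation of deviations from the group means. Same-numbered arrays gave 0.834, 0.413 and 0.663 (numbers 1, 3, 7) between both drugs and control, and 0.726, 0.411 and 0.756 between both drugs and cytochalasin D, so the block is given beside results it changes. The alternatives were added constants of 1 and 64, no filter and one at the 60th percentile, quantile normalization, only the 6 arrays compared, the replicate block, a trended and robust prior, and leaving out each array.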

Additional observations from a re-analysis of the deposited data

How the results depend on the processing

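The rise of Srf with cytochalasin D against control kept its call in all 8 other settings and without any 1 array. The rise with both drugs against control kept its direction throughout, but for 1418255_s_at the call was lost with a constant of 64 (log2 change 1.82, adjusted p = 0.0594), and at 2.05 without a filter (0.0856), after quantile normalization (0.0565) and with only the 6 arrays compared (0.177); leaving out 1 array gave 1.92 to 2.22. Srf 1418256_at became called at 1.33 against control and at -1.23 against cytochalasin D with the filter at the 60th percentile (adjusted p = 0.0324 and 0.0373 by limma) and with the replicate block (0.0293 and 0.0413). A narrower filter tests fewer probe sets; the cause of the other losses was not tested.

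With cytochalasin D against control, 4 member probe sets were called, and 2 with only the 6 arrays compared. All probe sets called in that comparison numbered 423, against 159 with only the 6 arrays, 1044 with the replicate block and 227 to 478 with 1 array left out. With both drugs against control, 1 member became 0 with a constant of 64, without a filter, after quantile normalization, with only the 6 arrays and with any 1 array left out (0 to 0), and 2 with the 60th percentile filter or the replicate block. All probe sets called there numbered 30, against 14 (constant of 64), 8 (no filter), 74 (60th percentile), 15 (quantile), 1 (6 arrays), 123 (replicate block) and 0 to 42 with 1 array left out. With both drugs against cytochalasin D, 1 member became 0 with a constant of 64, without a filter, after quantile normalization, with only the 6 arrays and with the trended prior, 2 with the 60th percentile filter, and 0 to 1 with 1 array left out. All probe sets called there numbered 70, against 16 (no filter), 9 (6 arrays) and 3 to 59 with 1 array left out.

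Of the results on single genes, those that changed sign with 1 array left out were 2 that were not called: Mrtfa with cytochalasin D against control ran between -0.18 and 0.027 with 1 array left out, and Fhl1 with both drugs against control between -0.056 and 0.18. In the pair cytochalasin D and control, same-numbered arrays correlated at 0.71, 0.076 and 0.653, so the number is not taken as a pairing there, and control 3 correlated better with cytochalasin D replicate 7 (0.391). The replicate block in that pair ended the Elk3 call (adjusted p = 0.0634 by limma) and kept those of Srf and Mical2 (0.00109, 0.00235 and 0.0223). Intensities near background, as for Elk1 and Myocd, set no useful limit on a change.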
